A study of Mus musculus with 2 samples.

Results

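Many probe sets of an expression array match more than one gene at once, because the genes are recent duplicates, because a processed pseudogene carries a copy of the transcript, or because a small RNA or a neighbouring gene lies within the same transcribed stretch. Such probe sets are usually passed over when genes are named. Here the 81 probe sets with at least 2 gene symbols that were at least 1.5-fold apart between 2 arrays are described, out of 1810 probe sets with several symbols and 41345 in all. The arrays measured inflammatory monocytes of the colon lamina propria, 1 from wild-type (WT) and 1 from Nlrp6-/- mice, both labelled as the C57BL/6 strain. Nlrp6 encodes a NOD-like receptor that can form inflammasomes. Both groups were given the carcinogen azoxymethane (AOM) at 10 mg/kg and then, from day 5, dextran sodium sulphate (DSS) at 2% for 5 days, a treatment that damages the colon lining. Cells carrying CD11b and high Ly6C, but neither CD3 nor Ly6G, were sorted on day 10. The labels do not say how many mice gave each RNA or how the knockout allele was made.

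Members were thus selected on the measured levels themselves. A probe set was a member if none of its symbols was an immunoglobulin segment, if the higher of its 2 levels was at least 3.25 on the log2 scale, and if the difference, with levels under 3.25 set to that floor, was at least 0.585 in size, which is 1.5-fold. Every difference below is Nlrp6-/- minus WT in log2 units. With 1 array per genotype there is no replicate, so no test, standard deviation or interval can be given, and every difference describes these 2 arrays. Of the 1805 probe sets without an immunoglobulin symbol, 1007 lay below the floor on both arrays and 798 could be compared. The rule found 65 on the high side in Nlrp6-/- (8.15%) and 16 on the low side (2.01%), 10.2% together. The same threshold was passed by 9.61% of 10052 single-symbol probe sets (6.44% higher, 3.17% lower) and by 26.2% of 6999 probe sets without a symbol (10.9% higher, 15.3% lower). These shares are the background of the rule itself, and nothing is read from them. The 81 members carried 74 distinct pairs of levels, because 7 of them repeated the values of another member exactly, and shared symbols linked them into 59 groups.

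Nlrp6 itself could not check the labels, since its probe set, at 2.32 in WT and 2.67 in Nlrp6-/-, never reached the floor. The array medians were 2.87 and 2.84. Among 1403 receptor probe sets of the olfactory and vomeronasal systems, which monocytes are not known to use, 94.8% lay under the floor in WT and 95.1% in Nlrp6-/-. Their differences, taken without the floor, had an SD of 0.19. With the floor, 1 was past 1.5-fold. Markers of the sorted cell were present on both arrays: 15 of 15 monocyte markers measured by own probe sets were at or above the floor. Of these, 2 were at least 1.5-fold higher, Fcgr1 (0.88) and F13a1 (1.06), against a background of 6.28% over 9498 genes. Lower ones numbered 0, against 3.06%, and the median difference of the 15 was 0.07.

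By their symbols alone, 44 members were groups of paralogs (39 higher, 5 lower), of 214 compared probe sets in that class (20.6%). These 44 carried 37 distinct pairs of levels. Another 22 paired a gene with a predicted or clone-named transcript (13 higher, 9 lower), of 257 (8.56%). In 5, all symbols or all but 1 were small RNAs (4 higher, 1 lower), of 90 (5.56%). The last 10 held distinct genes (9 higher, 1 lower), of 237 (4.22%). Paralogs are genes that arose by duplication. Young duplicates often stand side by side and code for nearly the same protein, and a short probe that matches one matches the others too. A shared probe set therefore reports the sum of what it can bind, and cannot say which copy was transcribed. The 182 symbols of the members were all found in the RefSeq gene table, 28 of them as pseudogenes. In 63 of the 81 members (77.8%) all symbols lay on a single chromosome, against 553 of the 717 compared probe sets under 1.5-fold (77.1%). A pseudogene was among the symbols of 21 members (25.9%) and of 162 of those 717 (22.6%).

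**Figure D1:**
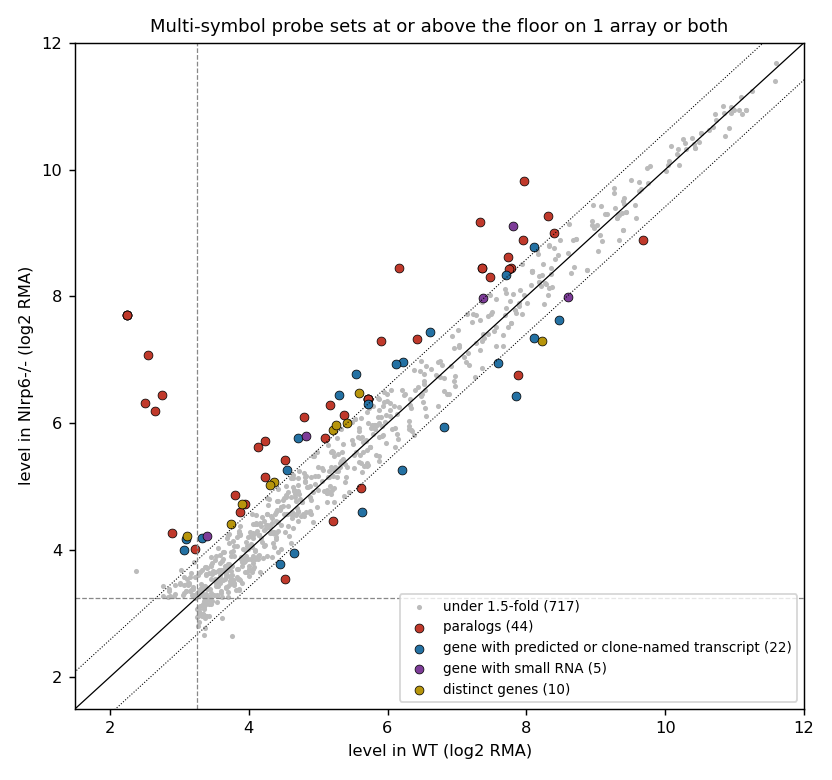
Level in WT (x axis) against level in Nlrp6-/- (y axis), log2 RMA, for the 798 multi-symbol probe sets at or above the floor on at least 1 array. Dashed lines mark the floor of 3.25 and dotted lines 1.5-fold. Colours give the symbol class of the 81 members, and the amylase probe sets stand apart at the left, below the floor in WT and between 6.20 and 7.71 in Nlrp6-/-.

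The promoters of some families that the results turn on are shown first. Between genes of the same family (histones were not compared), identity over the 300 bases ran from 53.7% to 100%. It was 60.0% for the unrelated Rps12 and Rps13. The lowest value, of Amy2a1 and Amy2a5, does not mean unlike sequence, since their windows share an unbroken run of 154 bases. Paralogs of a member did not all have similar windows: those of Uchl3 and Uchl4 matched in 56.3%, with a longest shared run of 7 bases. RefSeq promoter windows of mouse assembly GRCm38.p6, 250 bases before to 50 after an annotated start, were available for 125 of the 182 symbols. They were searched on both strands for 2 motifs: GAAANNGAAA, the core of the interferon-stimulated response element (ISRE), and TGACNNNGC, the core of the antioxidant response element (ARE). In all 32851 windows the ISRE core was found in 3.44% and the ARE core in 12.4%, which is 3.99% and 14.0% of 27025 genes. A match is a description of letters only. The windows of Slfn8 (chr11:83020761-83021060, minus strand), Slfn9 (chr11:82991781-82992080, minus strand), Trim34a (chr7:104244207-104244506, plus strand) and Trim12c (chr7:104353300-104353599, minus strand) each held the ISRE core, in capitals, read on the opposite strand. They belong to members that were higher in Nlrp6-/-.
Slfn8: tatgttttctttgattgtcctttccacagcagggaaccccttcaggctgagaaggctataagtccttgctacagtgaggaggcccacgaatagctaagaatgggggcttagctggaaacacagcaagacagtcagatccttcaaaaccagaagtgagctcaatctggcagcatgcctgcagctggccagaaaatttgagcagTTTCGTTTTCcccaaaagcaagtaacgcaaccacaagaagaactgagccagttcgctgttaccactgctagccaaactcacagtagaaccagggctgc
Slfn9: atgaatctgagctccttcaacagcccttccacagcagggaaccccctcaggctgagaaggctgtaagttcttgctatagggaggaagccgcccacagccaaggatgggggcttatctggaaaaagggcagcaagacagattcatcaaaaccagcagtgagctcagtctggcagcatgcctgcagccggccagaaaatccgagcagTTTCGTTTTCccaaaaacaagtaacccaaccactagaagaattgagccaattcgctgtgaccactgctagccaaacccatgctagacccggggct
Trim34a: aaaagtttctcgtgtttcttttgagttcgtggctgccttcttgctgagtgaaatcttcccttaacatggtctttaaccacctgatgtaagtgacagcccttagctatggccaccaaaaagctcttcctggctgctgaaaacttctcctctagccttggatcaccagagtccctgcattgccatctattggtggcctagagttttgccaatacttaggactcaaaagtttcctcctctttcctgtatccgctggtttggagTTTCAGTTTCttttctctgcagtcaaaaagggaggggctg
Trim12c: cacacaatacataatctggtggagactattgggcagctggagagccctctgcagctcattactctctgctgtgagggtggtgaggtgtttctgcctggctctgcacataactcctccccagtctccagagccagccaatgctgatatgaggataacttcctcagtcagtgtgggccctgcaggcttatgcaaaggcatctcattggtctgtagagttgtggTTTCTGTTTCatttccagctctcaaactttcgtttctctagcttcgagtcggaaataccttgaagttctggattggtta

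The windows of Gbp2 (chr3:142620413-142620712, plus strand) and Gbp2b (chr3:142594597-142594896, plus strand) also held the core, and their shared probe set was lower. The windows match in 57.3% of positions. Both had the same 10 letters, GAAAGTGAAA, beginning 59 bases before the start in Gbp2 and 137 bases before it in Gbp2b.
Gbp2: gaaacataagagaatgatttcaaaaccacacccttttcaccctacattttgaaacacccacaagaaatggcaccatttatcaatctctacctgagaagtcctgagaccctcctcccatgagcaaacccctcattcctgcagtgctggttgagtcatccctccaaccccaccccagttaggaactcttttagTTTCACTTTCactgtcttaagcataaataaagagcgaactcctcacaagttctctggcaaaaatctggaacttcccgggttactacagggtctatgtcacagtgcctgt
Gbp2b: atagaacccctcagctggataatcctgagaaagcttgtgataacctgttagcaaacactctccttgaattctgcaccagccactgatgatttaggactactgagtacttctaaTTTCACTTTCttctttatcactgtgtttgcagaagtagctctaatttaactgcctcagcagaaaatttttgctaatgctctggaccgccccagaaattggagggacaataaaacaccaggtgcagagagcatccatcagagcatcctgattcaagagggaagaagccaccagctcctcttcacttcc

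In all, the ISRE core was found in 8 of 88 genes with a window among the higher members, in 2 of 35 among the lower members and in 1 of 2 found in both. Over all genes the share was 3.99%. The 8 were Slfn8, Slfn9, Trim5, Trim12c, Trim34a, Ifi203, Xlr4d-ps and 4930599N23Rik, the 2 were Gbp2 and Gbp2b, and the gene in both was H2bc6. The windows of Sp100, Sp140, Ifi47 and Trim34b, also genes of higher members, did not hold it, nor did another window of Ifi203. The ARE core was found in 5 of 88 and 5 of 35, beside 14.0% of all genes. The first 5 were Jmjd6, Tmem181a and the copies Xlr4a, Xlr4b and Xlr4c. The other 5 were Mid1, Prdx1, Rbm14, Slc30a1 and Uchl4. One of the latter is Prdx1 (chr4:116685349-116685648, plus strand), whose shared probe set had the lowest difference of all members. The capitals mark the ARE core on the opposite strand, beginning 133 bases before the start.
Prdx1: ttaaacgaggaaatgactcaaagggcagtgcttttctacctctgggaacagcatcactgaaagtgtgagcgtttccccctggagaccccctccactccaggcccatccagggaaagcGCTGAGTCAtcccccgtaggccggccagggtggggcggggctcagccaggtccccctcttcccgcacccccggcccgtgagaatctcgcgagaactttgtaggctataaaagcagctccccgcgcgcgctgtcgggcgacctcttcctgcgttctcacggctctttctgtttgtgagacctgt

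The amylase windows carry neither motif and are shown because the family had the largest differences. The windows of Amy2a2, Amy2a3 and Amy2a4 were identical over all 300 bases, and Amy2a1 matched them in 97.0% of positions. Amy2a2 (chr3:113356609-113356908, minus strand) and Amy2a5 (chr3:113258650-113258949, minus strand) share an unbroken run of 162 bases, which lies at the end of the first window and nearer the beginning of the second, so that their annotated starts do not fall at the same base of the shared sequence.
Amy2a2: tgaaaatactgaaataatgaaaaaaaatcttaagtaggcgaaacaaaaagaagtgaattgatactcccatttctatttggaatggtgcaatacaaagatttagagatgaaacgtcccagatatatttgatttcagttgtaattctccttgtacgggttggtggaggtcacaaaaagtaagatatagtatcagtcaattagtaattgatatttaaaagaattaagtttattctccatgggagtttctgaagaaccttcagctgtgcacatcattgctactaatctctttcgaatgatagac
Amy2a5: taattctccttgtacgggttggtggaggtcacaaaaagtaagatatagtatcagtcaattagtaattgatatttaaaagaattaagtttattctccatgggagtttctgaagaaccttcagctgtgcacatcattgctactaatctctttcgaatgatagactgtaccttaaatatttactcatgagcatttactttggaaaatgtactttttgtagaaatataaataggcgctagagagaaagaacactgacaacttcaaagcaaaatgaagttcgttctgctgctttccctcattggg

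The pancreatic amylases, secreted enzymes that cut starch in the gut, showed the largest differences of any family. They are made by acinar cells of the pancreas and are not known as monocyte products. All 8 member probe sets were below the floor in WT and well above it in Nlrp6-/-. The probe sets of Amy2a5 and Amy2a2, deposited 4 times with identical values, were at 2.24 in WT and 7.71 in Nlrp6-/-, at least 22-fold higher. The 4 probe sets shared by Amy2a1, Amy2a2, Amy2a3, Amy2a4, Amy2a5 and Amy2b differed among themselves. The highest was at 2.55 in WT and 7.08 in Nlrp6-/-, at least 14.2-fold higher. The lowest was at 2.65 and 6.20, at least 7.72-fold higher, and the others were at 2.75 and 6.45, and at 2.51 and 6.32. These folds are lower bounds, since the WT level was set to the floor. The single probe set that matched Amy2b alone was below the floor on both arrays, at 2.01 and 2.08, so the signal was seen where the Amy2a copies are included. Which copy gave it cannot be read from a shared probe set.

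Other pancreatic genes, each measured by its own probe set, were compared beside the amylases. Of 15 acinar genes, 9 reached the floor on at least 1 array. Of those 9, 7 were at least 1.5-fold higher and 0 lower (background 6.28% and 3.06%). Of the 15, 12 were below the floor in WT and 6 in Nlrp6-/-. A gene that reached the floor only in Nlrp6-/- could not come out lower. Among the 9, only Clps, Ctrl and Try4 were above the floor in WT, with differences of 1.30, 1.40 and 0.77. The median of the 9 was 1.30, and the summed level of the list was 7.0 in WT and 8.35 in Nlrp6-/-. Ctrb1, a chymotrypsinogen, was at 3.10 and 6.21, Sycn, a zymogen granule protein, at 3.21 and 4.85, and Clps, the colipase, at 3.91 and 5.20. Of the defining acinar genes, Prss2, Cela1, Cela3b, Cel, Ctrc and Try5 were below the floor on both arrays. Zg16, counted here, is also a goblet cell gene of the colon. Epithelial markers were higher too: 10 of 16 were at least 1.5-fold higher, 0 lower, with a median of 0.86. Their summed level was 8.41 in WT and 9.36 in Nlrp6-/-, while Krt20, Cdx1, Cdx2 and Slc26a3 were below the floor on both. Krt19, Vil1, Phgr1 and Zg16, which is in both lists, reached the floor only in Nlrp6-/- and could not come out lower. The part of acinar and epithelial cells in the amylase signal was not tested. In a bulk sample such as these, fewer cells of a type and less RNA per cell cannot be told apart.

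Globins, the subunits of haemoglobin, formed the second family. Red blood cell precursors make them at very high levels. The 3 members shared by Hbb-b1, Hbb-b2 and Hbb-bs, copies of beta-globin, were at 6.17 in WT and 8.44 in Nlrp6-/- (2.28), at 7.96 and 9.82 (1.86), and at 3.81 and 4.87 (1.06). Of the 2 probe sets for the alpha-globins Hba-a1 and Hba-a2, 1 was a member, at 7.33 and 9.17 (1.84). The other, at 4.64 and 5.19, had a difference of 0.54 and was left out by the rule. All 5 were above the floor on both arrays and higher in Nlrp6-/-, with differences from 0.54 to 2.28. The promoter windows of Hba-a1 and Hba-a2 were 99.0% identical. Only 2 listed erythroid genes had a probe set of their own, Epor, the erythropoietin receptor, and Slc4a1, the band 3 anion exchanger of red cells, and both were below the floor on both arrays, at 2.75 and 2.74, and at 2.81 and 3.00. Whether red blood cell RNA had a part in the globin signal was not tested.

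**Figure D2:**
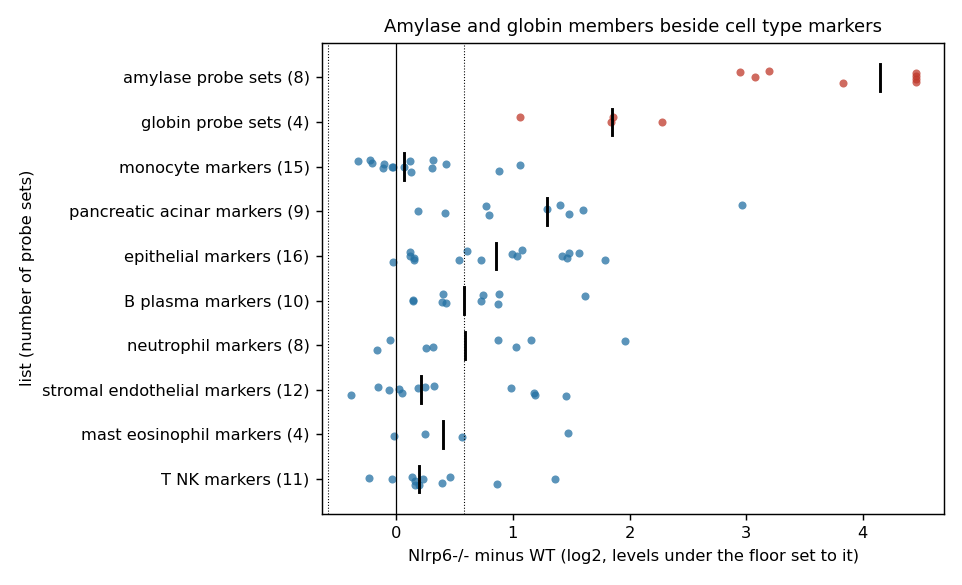
Differences (Nlrp6-/- minus WT, log2, levels under the floor set to it) of the amylase and globin members, in red, and of genes in marker lists of cell types, in blue, with probe sets at or above the floor on at least 1 array. Bars mark medians and dotted lines 1.5-fold. The amylase members lie between 2.95 and 4.46 and the globin members between 1.06 and 2.28, while the monocyte markers centre at 0.07 and the pancreatic and epithelial markers at 1.30 and 0.86.

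Further marker lists stood as follows, beside a background over 9498 genes of 6.28% higher and 3.06% lower. B and plasma cell markers had 5 of 10 at least 1.5-fold higher (median 0.58, summed level 10.1 in WT and 10.8 in Nlrp6-/-), neutrophil markers 4 of 8 (median 0.59, 9.60 and 10.0) and stromal and endothelial markers 4 of 12 (median 0.21, 9.57 and 10.4). T and NK markers had 2 of 11 (median 0.20, 9.27 and 9.38) and mast cell and eosinophil markers 1 of 4 (median 0.41, 8.78 and 9.07). None of these lists had a gene at least 1.5-fold lower. Genes that reached the floor only in Nlrp6-/-, such as Tnfrsf17, Retnlg and Gzma, could not come out lower. Pdgfra reached it only in WT and could not come out higher. Defining genes below the floor on both arrays included the B cell genes Ms4a1 and Pax5, the granulocyte genes Camp, Ltf, Elane and Mpo, and the T and NK genes Cd4, Zap70 and Ncr1.

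Interferon-induced families made up the next group. Interferons are antiviral cytokines. Type I interferons raise many genes through the ISRE, and interferon gamma raises a partly overlapping set. The TRIM34, TRIM5 and TRIM12 proteins are ubiquitin ligases related to retroviral restriction factors. Together, Trim34a and Trim34b read 4.14 in WT and 5.63 in Nlrp6-/- (1.49, or 2.81-fold). Trim34a had 2 probe sets of its own, at 5.83 and 7.57 (1.74) and at 6.61 and 7.87 (1.26), so that both gene-specific probe sets were past 2-fold like the shared one. A probe set of Trim12c and Trim5 was at 7.48 and 8.31 (0.83). Trim12c alone was at 4.29 and 5.27 (0.98), but a second probe set of the same gene pair, close to the floor at 3.33 and 3.33, showed a difference of -0.01. Over the whole TRIM5, TRIM12, TRIM30 and TRIM34 cluster, 7 of 7 genes with an own probe set at the floor were at least 1.5-fold higher (background 6.28%), with a median of 0.92. The largest were Trim34a, Trim30b (3.14 and 4.46, a bound of 1.21), Trim12c and Trim30d (8.57 and 9.49, 0.92). The promoter windows of Trim12c and Trim5, both with the ISRE core, were 88.3% identical, and those of Trim34a, with it, and Trim34b, without it, 60.0%.

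Schlafens are interferon-inducible regulators of cell growth and, in some members, of transfer RNA. The probe set shared by Slfn8 and Slfn9 was at 4.24 in WT and 5.72 in Nlrp6-/- (1.48, or 2.79-fold). Slfn8 had a probe set of its own, at 6.81 and 7.18, with a smaller difference of 0.37. No own probe set of Slfn9 was named in the annotation, so the shared value cannot be assigned to either gene. The windows printed above for Slfn8 and Slfn9 match in 84.0% of positions, and both hold the same ISRE letters, GAAAACGAAA. Among Schlafens with their own probe set, 3 of 6 were at least 1.5-fold higher (background 6.28%): Slfn4 at 6.31 and 7.34 (1.03), Slfn5 at 5.98 and 6.91 (0.93) and Slfn1 at 8.13 and 8.98 (0.85). Slfn2, the brightest, was at 10.0 and 9.85 (-0.15).

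The p200 proteins bind DNA, and several take part in sensing it. One member, for Ifi203, its pseudogene Ifi203-ps and LOC100862473, was at 7.96 in WT and 8.89 in Nlrp6-/- (0.93). Ifi203-ps alone was at 6.11 and 6.83 (0.72). In the family, 3 of 9 genes with their own probe set were at least 1.5-fold higher (background 6.28%), with a median of 0.41: Ifi213 at 5.08 and 6.85 (1.77), Mndal at 7.72 and 8.76 (1.04) and Ifi203-ps. The next was Ifi207 at 8.66 and 9.19 (0.52).

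SP100 and SP140 are proteins of nuclear bodies that interferons induce. Sp140 and the predicted gene Gm2427 shared a probe set at 5.55 in WT and 6.78 in Nlrp6-/- (1.23), and Gm2427 alone was at 4.12 and 5.28 (1.16). Another pair of probe sets of Sp140 with other predicted genes differed by 0.55 and 0.44, under 1.5-fold. Sp100 and Gm7609 shared one at 6.22 and 6.97 (0.75). The brightest own probe set of Sp100 was at 7.30 and 8.19 (0.89), whereas Gm7609 alone went the other way, at 4.98 and 4.56 (-0.42). Ifi47, an interferon gamma-inducible GTPase, shared one with the olfactory receptor gene Olfr56, at 5.25 and 5.97 (0.71).

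Guanylate-binding proteins (GBPs) are large GTPases, induced most strongly by interferon gamma, that attack vacuoles holding microbes. The probe set of Gbp2 and Gbp2b was at 9.67 in WT and 8.89 in Nlrp6-/- (-0.78), the sole lower member among these interferon-induced families. Gbp2b alone was close to the floor, at 3.32 and 3.13. Of 8 GBP genes with their own probe set, 0 were at least 1.5-fold apart (background 9.34%), and the largest differences were Gbp10 at 6.23 and 5.78 (-0.45), Gbp5 at 9.52 and 9.12 (-0.39) and Gbp3 at 7.56 and 7.73 (0.17). The GBP median was -0.01. These families stand beside 2 wider lists. Of 36 type I interferon-stimulated genes, which include Sp100 and Trim30a, 28 were at least 1.5-fold higher and 0 lower (background 6.28% and 3.06%), with a median of 0.96. Of 18 genes typical of interferon gamma, which include 6 of the GBPs, 3 were higher and 0 lower (the same background), with a median of 0.02. The median over all compared single-symbol probe sets was 0.01.

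**Figure D3:**
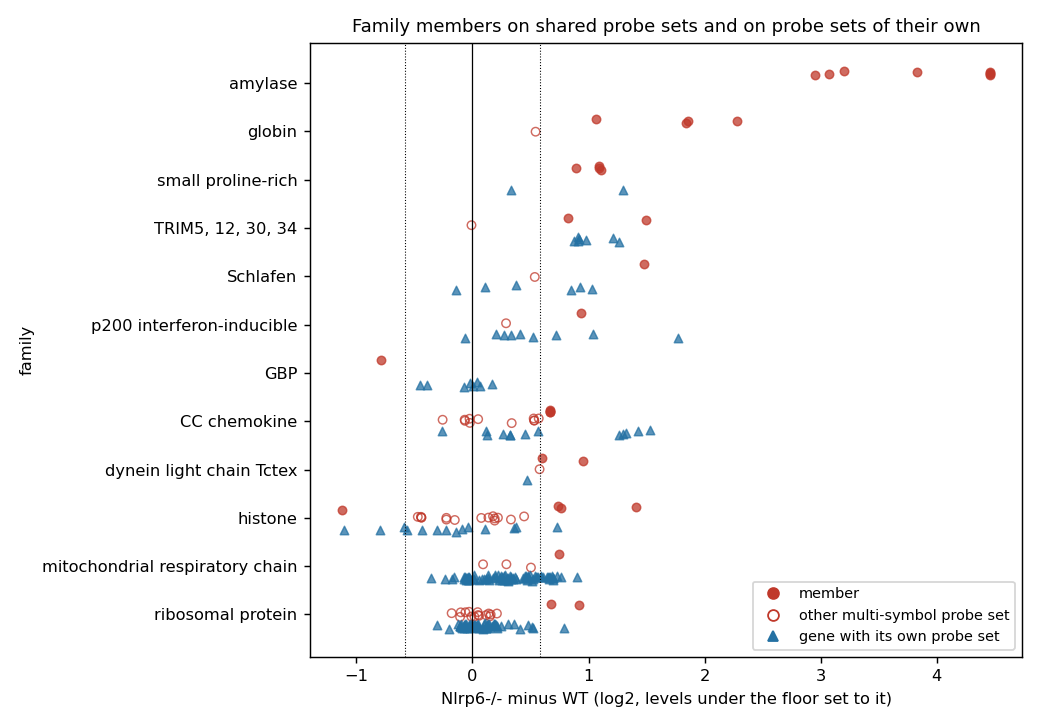
Differences (Nlrp6-/- minus WT, log2, levels under the floor set to it) in 12 families: members (filled red), other multi-symbol probe sets (open red) and genes with their own probe set (blue). Dotted lines mark 1.5-fold. The 7 TRIM genes with their own probe set all lie at 0.88 or above, the 8 GBP genes lie between -0.45 and 0.17, and the 2 histone H2B members lie on opposite sides of 0.

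Families of epithelial surfaces followed. Small proline-rich proteins of the SPRR2 group are crosslinked into the envelope of stratified epithelia and are also made by the injured gut lining. Of their 4 members, the probe sets of Sprr2a1, Sprr2a2 and Sprr2a3 were at 5.18 in WT and 6.28 in Nlrp6-/- (1.11) and, in a pair with identical values, at 7.37 and 8.46 (1.09). The probe set that adds Sprr2b was at 7.73 and 8.62 (0.89), and Sprr2b alone at 4.24 and 4.57 (0.33). The promoter windows of Sprr2a1 and Sprr2a2 were identical, and that of Sprr2b matched the Sprr2a windows in 59.7% to 60.3%. Sprr1a, from the same cluster, was at 5.81 and 7.11 (1.30). Gasdermin C proteins belong to a family of pore formers of epithelial cells. Gsdmc2 and Gsdmc4 shared a probe set that was below the floor in WT, at 2.90, and at 4.28 in Nlrp6-/-, at least 2.04-fold higher. With the floor at 4 this difference was 0.28 and no longer past the threshold. The epithelial marker list given above was higher as well, and its part in the SPRR2 and gasdermin values was not tested.

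Ccl21 encodes a chemokine that draws cells with the receptor CCR7 towards lymphatic vessels and lymphoid tissue, and mice carry several copies. The probe set of Ccl21a, Ccl21b, Ccl21c, Ccl21d and 4 predicted names was deposited 4 times with the same values, 5.71 in WT and 6.38 in Nlrp6-/- (0.66). Another 5 probe sets of the same symbols, which include a pair with identical values, had differences from 0.34 to 0.57 and were not members. The 9 probe sets of these symbols thus lie on both sides of the threshold within a narrow range. Ccl19, which binds the same receptor, had a shared probe set at 4.88 and 4.62 (-0.26). Of 13 CC chemokine genes with their own probe set, 5 were at least 1.5-fold higher and 0 lower (background 6.28% and 3.06%): Ccl8 at 4.73 and 6.26 (1.53), Ccl7 at 6.10 and 7.52 (1.43), Ccl2 at 7.16 and 8.49 (1.32), Ccl11 at 4.81 and 6.10 (1.29) and Ccl17 at 4.10 and 5.36 (1.26).

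The Xlr4 genes are X-linked genes first found in lymphocytes. Their 2 probe sets, both shared by Xlr4a, Xlr4b, Xlr4c and Xlr4d-ps, were at 4.80 in WT and 6.10 in Nlrp6-/- (1.30) and at 3.95 and 4.73 (0.78). Both were above the floor on both arrays. The promoter windows of Xlr4a and Xlr4b were 96.0% identical, while that of Xlr4d-ps, the one Xlr4 window with the ISRE core, matched those of the other Xlr4 genes in 56.0% to 59.0%.

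**Figure D4:**
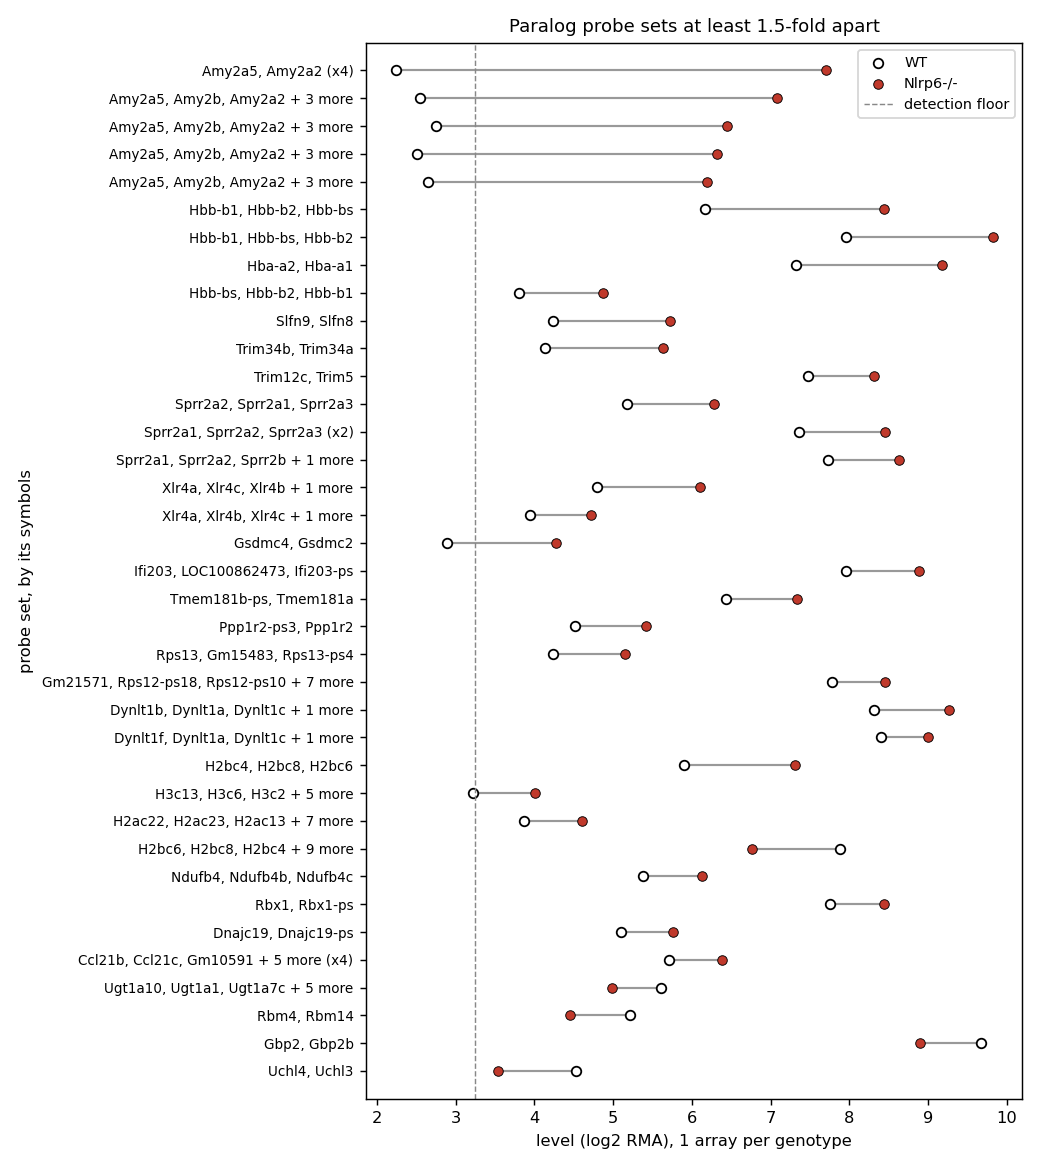
Levels (log2 RMA) in WT (open) and Nlrp6-/- (filled) of the 44 paralog members, with probe sets of identical values drawn once and marked by their number. The dashed line is the floor of 3.25. The amylase lines cross the floor and are the longest, and the 5 lines with the open point on the right are the members that were lower in Nlrp6-/-.

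Histones gave members in both directions. Replication-dependent core histone genes are present in many near-identical copies, and their transcripts, made in S phase, end in a stem loop and not in a poly(A) tail. The probe set of H2bc4, H2bc6 and H2bc8 was at 5.90 in WT and 7.31 in Nlrp6-/- (1.41). Another, of 12 symbols that include the same 3, was at 7.89 and 6.77 (-1.12). A second probe set with exactly these 3 symbols, not a member, was at 5.88 and 5.41 (-0.47). Among H2B probe sets, 3 more, which include a pair deposited with identical values, had differences of -0.44. The one that adds H1f4 was at 3.52 and 3.85 (0.33). Probe sets with shared H2B symbols thus lay in both directions, 2 higher and 5 lower, with the identical pair counted as 2. The H3 probe set of 8 symbols (among them H3c2, H3c3 and H3c13) was at 3.22 and 4.01, a bound of 0.76 since the WT level was under the floor (0.51 with the floor at 3.5 and 0.01 at 4, both under the threshold), while a brighter probe set of the same 8 was at 4.95 and 5.17 (0.22). The H2A probe set of 10 symbols (among them H2ac4, H2ac6 and H2ac22) was at 3.87 and 4.61 (0.74), while a brighter one of 12 symbols, deposited as an identical pair, was at 5.14 and 4.91 (-0.22). Of 14 histone genes with their own probe set at the floor, 1 was at least 1.5-fold higher and 3 lower (background 6.28% and 3.06%), with a median of -0.19. The lower ones were the oocyte linker histone H1f8 at 4.59 and 3.49 (-1.10), H2bc3 at 4.05 and 3.18 (a bound of -0.80) and H2ax at 4.20 and 3.61 (-0.59), and the higher one was H2aw at 4.48 and 5.21 (0.73).

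A set of members consists of housekeeping genes with a close copy or a pseudogene. Processed pseudogenes arise when a transcript is copied back into the genome, so abundant transcripts have the most of them. Of the higher members with a ribosomal protein gene, 2 were in the paralog class: Rps13 with Rps13-ps4 and Gm15483 at 4.24 in WT and 5.16 in Nlrp6-/- (0.92), and Rps12 with 8 of its pseudogenes and Gm21571 at 7.78 and 8.45 (0.67). Another, Rpl12 with Gm11425, was at 8.12 and 8.77 (0.66), and 2 probe sets of the same pair that were not members had differences of 0.35 and 0.02. The genes' own, brighter probe sets differed less, at 9.76 and 9.70 for Rps13 (-0.06) and at 10.7 and 10.9 for Rps12 (0.21, and 0.32 on its other own probe sets). A second shared Rps13 probe set was at 5.61 and 5.50 (-0.10). Of 61 ribosomal protein genes with their own probe set, 1 was at least 1.5-fold higher (background 6.28%), Rps27 at 3.24 and 4.04 (a bound of 0.79), and 0 were lower (background 3.06%), with a median of 0.05. A far brighter probe set shared by Rps27 and Rps27rt was at 10.98 and 10.95 (-0.03).

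The 2 members for Dynlt1a, Dynlt1b, Dynlt1c and Dynlt1f, which code for a light chain of the motor protein dynein, were at 8.31 in WT and 9.27 in Nlrp6-/- (0.95) and at 8.40 and 9.0 (0.60). Another probe set of these genes, at 7.15 and 7.73, missed the threshold at 0.58, and Dynlt3 alone was at 5.75 and 6.22 (0.47). All 3 Dynlt1 probe sets were thus higher in Nlrp6-/- by between 0.58 and 0.95.

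The remaining members of this kind were single. Tmem181a and Tmem181b-ps shared one at 6.43 in WT and 7.33 in Nlrp6-/- (0.90), and had another probe set at 4.17 and 4.42 (0.26). Ppp1r2, an inhibitor of protein phosphatase 1, had a probe set with Ppp1r2-ps3 at 4.52 and 5.42 (0.90) and one of its own at 4.93 and 4.95 (0.02). Ndufb4, an accessory subunit of respiratory complex I, had a probe set with Ndufb4b and Ndufb4c at 5.38 and 6.13 (0.75). Among 81 respiratory chain genes with their own probe set, 15 were at least 1.5-fold higher and 0 lower (background 6.28% and 3.06%), with a median of 0.30. The largest was Cox20, an assembly factor of cytochrome oxidase, at 6.26 and 7.15 (0.90), followed by Ndufa3 at 8.06 and 8.82 (0.76), Ndufa4 at 8.24 and 8.97 (0.73) and Cox7b at 8.43 and 9.13 (0.69). Rbx1, the RING subunit of cullin ubiquitin ligases, was with Rbx1-ps at 7.75 and 8.43 (0.68). Dnajc19, a co-chaperone of mitochondrial protein import, was with Dnajc19-ps at 5.10 and 5.76 (0.67), although a probe set that adds Fxr1 was at 6.06 and 5.91 (-0.15).

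The next 3 lower members were paralog groups outside the families above. Uchl3 and Uchl4, ubiquitin hydrolases, shared a probe set at 4.53 in WT and 3.54 in Nlrp6-/- (-0.99), while Uchl3 alone was at 3.56 and 3.87 (0.31). With the floor at 4 the member's difference was -0.53, under the threshold. Uchl3 is thus a case where the gene's own probe set had the opposite sign. Rbm4 and Rbm14, which encode RNA-binding proteins, shared one at 5.22 and 4.45 (-0.76), and a second one of the same symbols at 5.62 and 5.37 (-0.24). The Ugt1a genes conjugate bilirubin, steroids and drugs to glucuronic acid, and share their last exons. Their 8-symbol probe set was at 5.61 and 4.99 (-0.62), and a 5-symbol one at 5.94 and 5.82 (-0.12).

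Genes paired with a predicted or clone-named transcript held the lowest difference of all. Prdx1 encodes peroxiredoxin 1, which removes hydrogen peroxide and is a known target of the transcription factor NRF2, which binds AREs. Its probe set with Gm21399 was at 7.86 in WT and 6.44 in Nlrp6-/- (-1.42, or 2.67-fold lower), and a second member, with Gm21399 and AV051173, at 8.47 and 7.63 (-0.84). The brightest probe set of Prdx1 and Gm21399 was at 10.9 and 10.7 (-0.27) and was not a member. All 3 were lower in Nlrp6-/-, with differences from -1.42 to -0.27.

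The other lower members of this class were single. Loxl2, a secreted lysyl oxidase that crosslinks collagen, was with Gm21451 at 5.63 and 4.60 (-1.03). Cyria, a regulator of the RAC1 GTPase, was with 4921511I17Rik at 6.21 and 5.27 (-0.94), and alone at 10.2 and 9.87 (-0.29). The zinc exporter gene Slc30a1 was with 1700034H15Rik at 6.81 and 5.94 (-0.88). Mid1, which encodes a microtubule-bound ubiquitin ligase, was with G530011O06Rik at 7.60 and 6.94 (-0.65), and its 2 own probe sets were lower too, at 8.49 and 7.59 (-0.90) and at 7.71 and 6.90 (-0.82). Chp1 with Gm20056 (-0.76), Teddm3 with Gm6557 (-0.70) and Taf6l with Gm2518 (-0.67, or -0.46 with the floor at 4) complete the 9. A second probe set of Chp1 with Gm20056 differed by -0.48, and Chp1 alone by -0.06. The own probe sets of Teddm3 were below the floor on both arrays. A second probe set of Taf6l with Gm2518, close to the floor, differed by -0.13.

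Of the 13 higher members of this class, 3 were at least 2-fold apart: Sp140 with Gm2427, given above, Twf1 with Gm4887 and Kdm7a with 4930599N23Rik. Twf1 encodes twinfilin, which binds actin monomers, and its shared probe set was at 5.30 in WT and 6.45 in Nlrp6-/- (1.15). Its own probe set was at 7.39 and 7.46 (0.07). Kdm7a encodes a histone demethylase, and its shared probe set was at 4.71 and 5.77 (1.07), while its own was at 7.05 and 7.13 (0.08). In both cases the shared probe set was at least 2-fold apart and the gene's own one nearly level. The others, beside Sp100 with Gm7609, were Gm5088 with Pabpc4 (0.92, a bound), the 5-symbol group of 4933402N22Rik (0.86), Btg3 with Gm7334 in 2 probe sets (0.82 and 0.81), Eps8l3 with 4933431E20Rik (0.76, a bound), Hmgn2 with Gm19399 (0.71), Rpl12 with Gm11425, given above, Ppp1cc with Gm9315 (0.64) and Gm16845 with Gm6581 (0.59). With the floor at 4 the values of Pabpc4, the 4933402N22Rik group and Eps8l3 were 0.17, 0.19 and 0.01, all under the threshold, as was Eps8l3 with the floor at 3.5 (0.51), and after a renewed quantile normalization that of Gm16845 was 0.57.

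Small nucleolar and Cajal body RNAs guide the modification of other RNAs and often lie in introns of host genes, so an array probe set there can hold intron as well as exon signal. Snord14e and its host Hspa8, a constitutive heat-shock chaperone, read 7.81 in WT and 9.11 in Nlrp6-/- (1.30). All 4 own probe sets of Hspa8 were slightly lower instead, by differences from -0.23 to -0.09, the brightest at 11.3 and 11.2. Scarna13 with Mir3069 was at 4.82 and 5.81 (0.98). Nop56, a core protein of small nucleolar RNA particles, was with Snord57 at 3.39 and 4.22 (0.82) and alone at 6.21 and 6.55 (0.35) and at 4.10 and 3.84 (-0.26). The Nop56 member's difference was 0.22, no longer past the threshold, with the floor at 4. Eif4a2, an RNA helicase of translation, was with Snora81 at 7.38 and 7.98 (0.60), with Snord2 at 6.30 and 5.95 (-0.35), and alone at 9.52 and 9.48 (-0.05), with 0.06 and 0.09 on its other own probe sets. The lower member, Zeb2 with Mir5129, was at 8.60 and 8.0 (-0.60). Zeb2 is a transcription factor of myeloid cells, and its probe set with Zeb2os was at 7.13 and 6.96 (-0.17).

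In the 10 members of distinct genes all symbols lay on the same chromosome. So did those of 210 of the 227 compared probe sets of this class under 1.5-fold (92.5%). The largest higher one was Dynlt1f with Tmem181b-ps, below the floor in WT at 3.11 and at 4.23 in Nlrp6-/- (0.98, a bound that was 0.23 with the floor at 4), which joins the Dynlt1 and Tmem181 groups above. Lrrc61 with Rarres2, the gene of the chemoattractant chemerin, was at 5.58 and 6.48 (0.90). Fntb with Churc1 (0.83), Vps26b with Thyn1 (0.73), Ifi47 with Olfr56, Fosl1 with Ccdc85b (0.71), Jmjd6 with Mettl23 (0.68), Ube2e1 with Nkiras1 (0.67) and Ssb with Mettl5 (0.59) were the other higher ones. Ube2e1 with Nkiras1 was at 0.42 with the floor at 4, and Ssb with Mettl5 at 0.55 after a renewed quantile normalization, both under the threshold. The lower one paired Rmrp, the RNA of a ribonuclease that processes ribosomal RNA, with Ccdc107, at 8.23 and 7.30 (-0.93). A second probe set of both was at 4.22 and 4.07 (-0.14).

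How far a member's difference was seen in the gene's own probe set was then set out for every symbol that has one. Of the 182 symbols, 43 had a probe set of their own and 28 had one at or above the floor on at least 1 array. Taking the brightest for each gene, 7 of the 28 were at least 1.5-fold apart in the direction of the member: Trim34a, Gm2427, Trim12c, Sp100, Ifi203-ps, Mettl23 and Mid1. A further 21 were under 1.5-fold, and 0 were at least 1.5-fold apart in the opposite direction. By sign alone, 22 of the 28 followed the member and 6 did not: Gm7609, Uchl3, Nkiras1, Hspa8, Rps13 and Eif4a2. Own differences not given above were -0.26 for Nkiras1, 0.18 for Vps26b, 0.21 for Ppp1cc, 0.25 for Gm19399, 0.38 for Ssb and for Pabpc4, and 0.62 for Mettl23. The background over 9498 genes was 6.28% higher and 3.06% lower, 9.34% in either direction. For the 23 genes of higher members the median own difference was 0.25, and for the 5 of lower members -0.07. Of the 7, 5 are the TRIM, p200 and SP100 or SP140 genes described above. These values come from the same 2 arrays and are not independent samples.

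**Figure D5:**
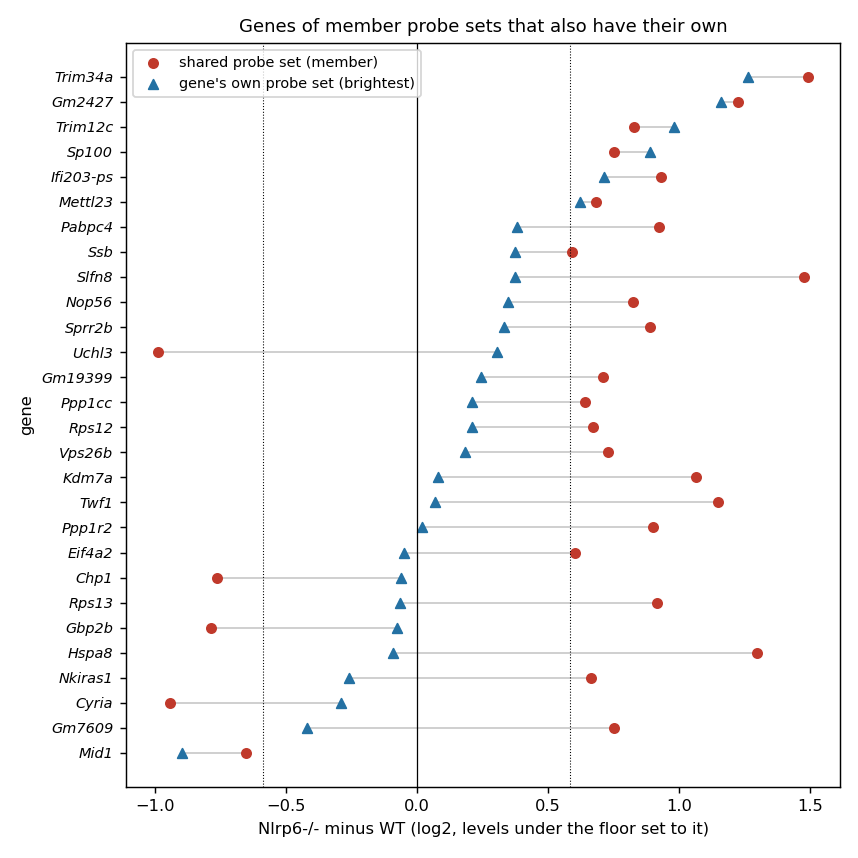
For the 28 genes that have a brightest own probe set at or above the floor, the difference (Nlrp6-/- minus WT, log2, levels under the floor set to it) of the shared member probe set (red) and of the own probe set (blue). Dotted lines mark 1.5-fold. For Trim34a the points lie at 1.49 and 1.26, whereas for Hspa8 they lie at 1.30 and -0.09 and for Uchl3 at -0.99 and 0.31.

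At the threshold itself, the members just inside on the high side were Gm16845 with Gm6581 (0.588), Ssb with Mettl5 (0.591) and Dynlt1 (0.599). Just outside were Sp110 with A530040E14Rik, at 7.94 in WT and 8.52 in Nlrp6-/- (0.583), Ilk with Taf10 at 8.15 and 8.73 (0.581) and a Dynlt1 probe set (0.578). On the low side, Zeb2 with Mir5129, the Ugt1a group and Mid1 with G530011O06Rik were just inside. Just outside were the probe sets of Anxa11 with Gm2260 and Gm2274 at 6.38 and 5.82 (-0.56), a second one of Mid1 with G530011O06Rik at 5.45 and 4.91 (-0.54) and Tmem140 with Cyren at 5.38 and 4.85 (-0.53). Probe sets of the same genes thus lay on both sides for Dynlt1 and Mid1.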

How the data were processed

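RNA was measured on 2 Affymetrix Mouse Gene 2.1 ST arrays, grouped by the genotype in the labels. Per the labels' protocols, 10 ng of RNA was amplified and labelled; 2 protocol fields name different kits. The authors computed log2 levels by robust multiarray average (RMA) with the oligo package in R 2.15.1, with Gene Atlas software 1.0.4.267. RMA equalises the arrays' distributions, so a shift of all transcripts cannot be seen.

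From the deposited log2 levels, differences were taken with Python 3.11.15, pandas 2.3.3 and numpy 2.4.6, with a floor of 3.25. The platform annotation, which can be old, supplied the symbols, and RefSeq GRCm38.p6 tables supplied gene positions and promoter windows, aligned globally with Biopython 1.88. For a gene with several own probe sets the brightest was used in lists. The scripts were tested on simulated data. The number of arrays limits the precision.

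The members, the 61 family patterns and the 13 gene lists were chosen with earlier results of these data known. Named were all paralog members, and other members at least 2-fold apart or largest in each direction. The 3 probe sets on each side of the threshold were named, as were own probe sets, at the floor, of genes in paralog members. Up to 4 own genes per family were also named. Other members, own probe sets of their genes, and the other multi-symbol probe sets of the same genes were named after their values were seen. The histone, MHC class I (1 of 13 higher, 0 lower, beside a background of 6.28% and 3.06%) and other lists used own probe sets only; of 3 listed histone genes at the floor, 0 were higher and 1 lower. Alternatives were other floors, other normalizations, a 2-fold threshold and other ways to count probe sets. Protein identity between paralogs was not analysed here.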

Additional observations from a re-analysis of the deposited data

How the results depend on the processing

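The counts of 65 higher and 16 lower members depended most on the threshold and on what counts as a member. At 2-fold there were 24 higher and 3 lower. With at least 2 symbols that are neither predicted nor small RNA names there were 48 higher and 6 lower. Other floors, no floor and the 3 other normalizations gave 57 to 69 higher and 14 to 20 lower. Counting probe sets linked by a shared symbol once gave 45 higher and 15 lower, and counting identical levels once, an alternative added after the data were seen, gave 58 and 16. With floors between 3 and 4, 71 to 81 of the 81 members were still called and 0 in the other direction. Of 567 recomputed member differences, 517 moved by less than the SD of the silent receptors, which was taken without the floor. Another 50 moved by more, each of them under another floor or none, and 0 reversed. No paired analysis was possible because each genotype has 1 array.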
